A study of Mus musculus with 24 samples.

Results

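Untreated CD8 T cells of mice without the kinase Atm were compared with those of wild-type mice across all genes, as the 3 CD8 libraries labelled Atm-/- with no transplantation (KO controls 1 to 3) against the 3 labelled Atmwt/wt with no transplantation (WT controls 1 to 3). These are 6 of the 24 libraries of the series. All mice were C57BL/6N, and none of these had received lymphoma cells. Each KO library pooled 2 mice, 6 in all, and the WT libraries pooled 3, 2 and 2 mice, 7 in all. The series sequenced the 3′ ends of polyadenylated RNA from splenic T cells of both genotypes, CD4 and CD8, in 3 libraries per group. The mice were with or without a transplanted B-cell lymphoma. T cells were enriched with a magnetic kit, and the sources used here do not say how CD8 cells were then separated. They also leave out the age and sex of the mice and the Atm allele.

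Atm is a large protein kinase that is switched on by DNA double-strand breaks and phosphorylates checkpoint and repair proteins, p53 among them. In the thymus it acts while antigen receptor genes are being cut and rejoined, and people and mice that lack it have fewer T cells. CD8 T cells of the spleen are a mix of naive cells, which have not met antigen, and of memory or activated cells. Memory cells carry CD44 and the interleukin-15 receptor chain CD122, depend on the transcription factors T-bet and Eomes, and hold ready mRNA for granzymes and chemokines. In a bulk library, a larger share of such cells and more RNA per cell cannot be told apart.

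The libraries held 6541484, 8614983 and 8617155 counts in KO controls and 6874251, 8876146 and 8279907 in WT controls. Expression is given in CPM, the count of a gene relative to its library's total after that total was adjusted by the trimmed mean of M values. KO control 1 stood apart with 17707 genes that had a count, against 15263 to 16318 in the other 5 libraries. WT control 1 had the lowest summed levels of natural killer, monocyte, platelet, B cell and neutrophil genes. Cd8a, a co-receptor chain, stood at 445, 419.9 and 463 CPM in KO controls, against 521, 501 and 445 in WT controls. Its partner Cd8b1 stood at 622, 555 and 605 CPM in KO controls, against 655, 644 and 512 in WT controls. Cd4 was at 4.61, 2.902 and 1.67 CPM in KO controls and 1.42, 4.06 and 7.07 in WT controls, so the co-receptor labels fit the RNA in all 6. Ddx3y, a gene of the Y chromosome, was at 1.998, 1.86 and 53.1 CPM in KO controls and 39.9, 135 and 81.7 in WT controls. It was lowest in KO controls 1 and 2, as were Eif2s3y and Uty. Kdm5d, also on the Y chromosome, stood at 66.4, 1.16 and 7.995 CPM in KO controls and 6.53, 21.2 and 14.4 in WT controls, highest in KO control 1. The part of Y-linked genes in the results was examined only by a fit with Ddx3y, Eif2s3y and Uty as a covariate.

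Atm itself was at 89.6, 105 and 110.3 CPM in KO controls, against 205, 198 and 185 in WT controls. The gene lies at chr9:53439149-53536740 on GRCm38. All 3 KO values were below all 3 WT values, and the log2 fold change of KO over WT was -0.95 ± 0.24. With Benjamini-Hochberg adjustment over all genes in edgeR's quasi-likelihood test, adjusted p was 0.122, which missed 0.05. DESeq2 gave adjusted p = 0.00956 and limma voom 0.00953. Tags at the 3′ end tell nothing of exons upstream of them, and without the allele it is not known whether the counted end belongs to a part the disruption removed.

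Of 12650 genes tested, 66 passed an adjusted p of 0.05, which is 0.522%. Of these, 51 rose in KO controls (0.403%) and 15 fell (0.119%). In all 66 the 3 KO values did not overlap the 3 WT values, and in 25.5% of all tested genes they did not either. The rises reached a log2 fold change of 2.59 and the falls reached -1.86, and the median over all tested genes was 0.035. At an unadjusted p of 0.05 there were 1861 genes (14.7%). Without each library in turn the count was 17, 8 and 14 without KO controls 1, 2 and 3, and 39, 84 and 18 without WT controls 1, 2 and 3. Cd163l1, Chsy1, Tbx21, Chst11, Dlg5, Gzmm, 1700025G04Rik and Oas1a passed in each of these 6 fits, and 22 of the 66 passed in none of them. Among the 22 were the falls Ampd1, Cirbp, Dph7, Idi1, Kif23 and Matk and the rises Ahnak, Ahsa1, Apobec2, Ctla2b and Stip1. With the level of 3 Y-linked genes as a covariate, 14 genes passed, 13 of them among the 66. In that fit the 66 kept their direction, each with at least 80% of its log2 fold change. The median was 1.21 over the 51 rises (1.16 without the covariate) and -1.08 over the 15 falls (-1.14 without it), and the median standard error grew 1.20 and 1.21 times. The 13 were Cd163l1, Chsy1, Tbx21, Chst11, Dlg5, Gzmm, 1700025G04Rik, Oas1a, Sipa1l1, Rgcc, Crybg1, Ly6a and Myo1f. Mouse identifiers begin with S in KO control 1 and WT controls 1 and 2. They begin with B in KO controls 2 and 3 and WT control 3, which divides the libraries otherwise than the genotype. Since the groups did not overlap, the same direction of all 66 genes within each kind was fixed in advance. With the share of B identifiers as a covariate, 42 genes passed, 37 of them among the 66.

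Genes that mark memory CD8 cells gave more calls than any other list. Of 36 memory genes measured, 10 rose (against 0.403% of all genes) and none fell. Of the 36, 34 had a log2 fold change above 0, against 54.6% of all genes tested. KO values lay wholly above WT values in 30 of the 36, against 14.3% of all genes, and the list's median log2 fold change was 0.97. Summed over the list, expression was 7815, 8003 and 7456 CPM in KO controls, against 3312, 4424 and 4433 CPM in WT controls. The count was 1 without KO control 1, 1 without KO control 2 and 1 without KO control 3, and 2 with the Y-linked covariate. Without WT controls 1, 2 and 3 in turn, 4, 10 and 2 members passed.

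Tbx21 encodes T-bet, the T-box transcription factor of cytotoxic and type 1 lymphocytes. It was at 351, 399 and 364 CPM in KO controls and 92.4, 156 and 126 in WT controls (log2 fold change 1.57 ± 0.18, adjusted p = 0.00394). All 3 KO libraries lay far above the WT range, in which WT control 1 was the lowest. Il2rb, the chain shared by the interleukin-2 and interleukin-15 receptors (CD122), was at 1265, 1260.5 and 1266 CPM in KO controls and 513, 564 and 568 in WT controls (log2 fold change 1.21 ± 0.18, adjusted p = 0.0122). Replicates lay close together within both genotypes. Cxcr3, a chemokine receptor of memory and activated T cells, had 72.5, 65.2 and 69.9 CPM in KO controls, against 22.1, 25.2 and 23.98 in WT controls (log2 fold change 1.54 ± 0.23, adjusted p = 0.0137). Cd44, the hyaluronan receptor used to tell memory from naive cells, had 149.5, 135 and 121 CPM in KO controls and 45.4, 77.6 and 62.7 in WT controls (log2 fold change 1.12 ± 0.20, adjusted p = 0.0348), with the lowest value in WT control 1.

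Ly6a, which encodes the surface antigen Sca-1, was at 37.96, 34.9 and 35.2 CPM in KO controls and 9.08, 15.7 and 15.3 in WT controls (log2 fold change 1.43 ± 0.21, adjusted p = 0.0137). Lgals1, the secreted lectin galectin-1, was at 234, 273 and 224 CPM in KO controls and 90.8, 123 and 125 in WT controls (log2 fold change 1.11 ± 0.17, adjusted p = 0.0157). Samd3 averaged 93.3 ± 4.32 CPM in KO controls and 31.1 ± 8.56 in WT controls (SD, n = 3 each; log2 fold change 1.58 ± 0.22, adjusted p = 0.0103). Ahnak, a very large scaffold protein of the cell cortex, averaged 521 ± 28.9 CPM in KO controls and 267 ± 15.9 in WT controls (log2 fold change 0.97 ± 0.18, adjusted p = 0.0409), and passed in none of the 6 fits that left out a library. The integrin chain Itgb1 averaged 131 ± 22.1 CPM in KO controls and 65.8 ± 15.6 in WT controls (log2 fold change 0.99 ± 0.18, adjusted p = 0.0419). WT control 1 was the lowest of the 6 libraries for Ly6a, Lgals1, Samd3, Ahnak and Itgb1. Eomes, the other T-box factor of memory CD8 cells, did not pass, at 88.7, 116 and 104 CPM in KO controls and 59.2, 61.5 and 60.3 in WT controls (log2 fold change 0.77 ± 0.17, adjusted p = 0.082), though its groups did not overlap.

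**Figure D1:**
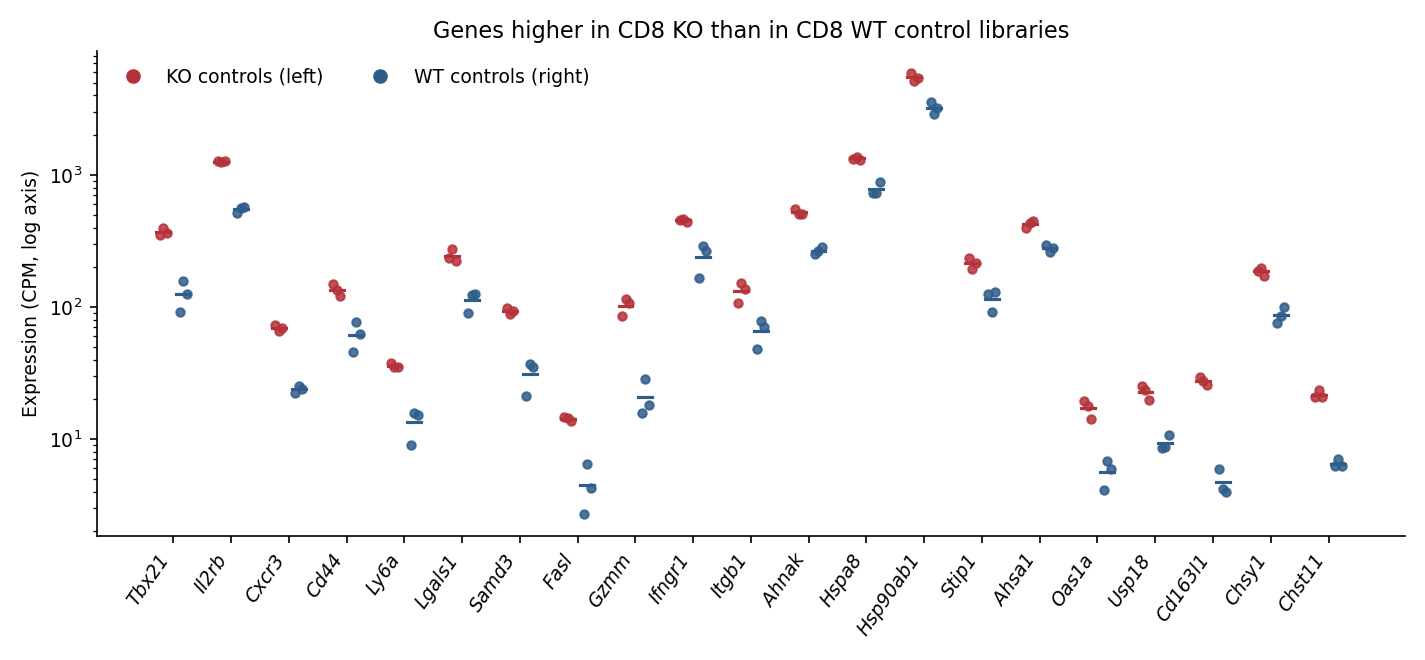
Expression in CPM (log axis) of 21 genes that rose in KO controls, in each of the 3 KO (red, left) and 3 WT (blue, right) CD8 control libraries. Short lines are group means. In every gene drawn the KO points lie above all WT points, from Fasl at 13.7 CPM or more in KO controls to Hsp90ab1 at 5116 CPM or more.

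Cytotoxic genes gave fewer calls, all of them upwards. Of 25 effector genes measured, 2 rose (against 0.403% of all genes), none fell, and the median log2 fold change was 0.90. KO values lay above all WT values in 16 of the 25, against 14.3% of all genes. Gzmm, the serine protease granzyme M, was at 84.8, 114 and 107 CPM in KO controls and 15.8, 28.4 and 17.95 in WT controls (log2 fold change 2.29 ± 0.26, adjusted p = 0.0043), one of the largest rises among the called genes. Fasl, the death ligand that engages Fas, was at 14.6, 14.5 and 13.7 CPM in KO controls and 2.697, 6.498 and 4.29 in WT controls (log2 fold change 1.66 ± 0.28, adjusted p = 0.0241). Prf1, which encodes perforin, stood at 136, 129.8 and 129 CPM in KO controls and 62.2, 69.97 and 68.2 in WT controls and did not pass (log2 fold change 0.98 ± 0.20, adjusted p = 0.0652). Ccl5, a chemokine that memory CD8 cells store as mRNA, stood at 638, 603 and 492 CPM in KO controls and 102, 272 and 277 in WT controls and did not pass either (log2 fold change 1.41 ± 0.32, adjusted p = 0.0892). Gzma spread widely, at 439.9, 340.4 and 252 CPM in KO controls and 25.7, 192 and 177 in WT controls (adjusted p = 0.339). Prf1 is also on the natural killer list, and Gzma and Ccl5 are expressed by natural killer cells as well. That list summed to 472, 431 and 413.5 CPM in KO controls and 96.2, 291 and 275 CPM in WT controls. The part of natural killer RNA in the called memory and effector genes, such as Tbx21, Il2rb, Gzmm and Fasl, was not tested.

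Among cytokine receptors 2 of 27 rose (against 0.403% of all genes) and none fell in edgeR, while DESeq2 called 6 and voom 8. The median log2 fold change was 0.28, and it was 0.169 without KO control 3 and 0.08 with the Y-linked covariate. Besides Il2rb this was Ifngr1, the ligand-binding chain of the interferon-gamma receptor, at 458, 466 and 442 CPM in KO controls and 166, 290.0 and 265 in WT controls (log2 fold change 0.92 ± 0.17, adjusted p = 0.0409). In WT control 1 it was well below the other WT libraries. Of 15 chemokine and sphingosine phosphate receptors measured, edgeR called 1, Cxcr3, against 0.522% of all genes. Of the 15, 8 had an unadjusted p under 0.05, and DESeq2 and voom each called 3.

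No gene of the naive list passed in either direction, while 7 of the 25 had an unadjusted p under 0.05 in edgeR and DESeq2 and voom each called 2. Of its members 20 had a log2 fold change below 0, KO values lay wholly below WT values in 9, against 11.2% of all genes, and the median was -0.27. Ccr9, the gut-homing chemokine receptor that naive CD8 cells keep from the thymus, stood at 70.9, 87.2 and 91.8 CPM in KO controls, against 295, 221 and 244 in WT controls (log2 fold change -1.60 ± 0.33, adjusted p = 0.0708). Lef1, a transcription factor of naive T cells, stood at 101, 130.5 and 137 CPM in KO controls and 238, 219 and 238 in WT controls (log2 fold change -0.91 ± 0.23, adjusted p = 0.117). In both genes the groups did not overlap, and the difference missed the threshold. Foxp1, a transcription factor that keeps T cells quiescent, was at 636, 647 and 758 CPM in KO controls, against 1007, 749.6 and 848 in WT controls. Actn1, an actin crosslinker, was at 491, 515 and 580.4 CPM in KO controls, against 782, 635 and 631 in WT controls.

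The T cell receptor complex and its proximal kinases gave 0 calls in edgeR among 28 genes, where 2 had an unadjusted p under 0.05 and DESeq2 and voom each called 1. KO values lay wholly below WT values in 8 of the 28, against 11.2% of all genes. Trbc2, a constant segment of the receptor's beta chain, was at 552, 619.8 and 684 CPM in KO controls and 843, 837 and 706 in WT controls (log2 fold change -0.36 ± 0.23, adjusted p = 0.485). Inhibitory receptors gave 0 calls in edgeR, DESeq2 and voom among 15 genes, with 1 at an unadjusted p under 0.05. Tox, a transcription factor of exhausted cells, was at 44.1, 48.9 and 47.7 CPM in KO controls and 59.5, 59.4 and 67.9 in WT controls (log2 fold change -0.41 ± 0.19, adjusted p = 0.34). Variable segments could not be compared, since 0 of 111 alpha and 1 of 35 beta segments had enough counts to be tested.

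A pair of scavenger receptor genes gave some of the sharpest differences. Cd163l1, which encodes Scart1 and is known in mice from gamma-delta T cells, was at 29.7, 27.3 and 25.5 CPM in KO controls, against 5.96, 4.18 and 3.94 in WT controls (log2 fold change 2.55 ± 0.25, adjusted p = 0.00304), the smallest adjusted p of all genes. Its neighbour on chromosome 7, 5830411N06Rik, which encodes the related Scart2 and was picked out after its values were seen, was at 54.4, 57.01 and 65.9 CPM in KO controls and 14.2, 14.4 and 8.92 in WT controls (log2 fold change 2.24 ± 0.34, adjusted p = 0.0185). The constant segment Trdc of the delta chain was at 13.4, 10.22 and 10.4 CPM in KO controls and 4.68, 7.54 and 7.298 in WT controls (log2 fold change 0.79 ± 0.28, adjusted p = 0.233). Cd163l1 was the only one of 6 gamma-delta genes measured that passed, against 0.522% of all genes. KO values lay above all WT values in 2 of the 6, against 14.3% of all genes. The summed level of the 6 was 58.4, 55.5 and 52.0 CPM in KO controls and 19.6, 26.7 and 25.4 CPM in WT controls. Of the KO sums, Cd163l1 alone gave 29.7, 27.3 and 25.5 CPM. The part of gamma-delta cells in these values was not tested.

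Of the genes named next, 3 are enzymes that act on sugar chains and the others are proteins of the cell surface, put together after their values were seen. Chsy1, a chondroitin sulfate synthase, was at 188, 199 and 172 CPM in KO controls and 76.1, 85.6 and 99.7 in WT controls (log2 fold change 1.09 ± 0.12, adjusted p = 0.00357). Chst11, a sulfotransferase that acts on chondroitin, was at 20.7, 23.7 and 20.6 CPM in KO controls and 6.25, 7.08 and 6.25 in WT controls (log2 fold change 1.73 ± 0.20, adjusted p = 0.00394). Both passed in every fit that left out a library. St3gal6, a sialyltransferase, and Gpc1, a cell-surface heparan sulfate proteoglycan, also rose, to 68.1 ± 4.14 and 23.7 ± 1.11 CPM in KO controls, against 34.1 ± 3.12 and 12.8 ± 2.71 in WT controls (SD, n = 3 each; adjusted p = 0.0168 and 0.0492). Cdh1, the adhesion molecule E-cadherin and a ligand of the receptor Klrg1, was at 51.6, 54.2 and 69.4 CPM in KO controls and 6.81, 21.1 and 15.6 in WT controls (log2 fold change 1.999 ± 0.37, adjusted p = 0.0452), again with WT control 1 the lowest.

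Dlg5, a membrane scaffold of the guanylate kinase family, had the largest fold change, at 15.7, 17.9 and 23.9 CPM in KO controls and 2.41, 3.95 and 3.13 in WT controls (log2 fold change 2.59 ± 0.30, adjusted p = 0.0043). Kcnk5, a background potassium channel, was at 15.1, 14.3 and 12.9 CPM in KO controls and 2.41, 1.51 and 5.21 in WT controls (log2 fold change 2.20 ± 0.36, adjusted p = 0.0241). Dapk2, a calcium-regulated kinase of the death-associated family, averaged 9.49 ± 1.42 CPM in KO controls and 2.27 ± 0.502 in WT controls (log2 fold change 2.05 ± 0.28, adjusted p = 0.00882). Myl9, a regulatory light chain of myosin abundant in platelets and smooth muscle, varied among the KO libraries, at 21.4, 11.3 and 14.4 CPM, against 3.12, 7.31 and 4.05 in WT controls (log2 fold change 1.68 ± 0.30, adjusted p = 0.0385). Apobec2, a member of the cytidine deaminase family, was low throughout, at 4.15, 6.97 and 5.37 CPM in KO controls and 1.42, 2.205 and 1.85 in WT controls (log2 fold change 1.58 ± 0.30, adjusted p = 0.0452). Ctla2a, a cysteine protease inhibitor of activated T cells, was at 268, 212 and 200.0 CPM in KO controls and 59.3, 92.6 and 85.5 in WT controls (log2 fold change 1.51 ± 0.26, adjusted p = 0.03). Its near copy Ctla2b also rose (log2 fold change 1.20 ± 0.23, adjusted p = 0.0449), and how tags were divided between the pair is uncertain.

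The other called rises, picked out here after their values were seen, include genes of signalling and of the cytoskeleton. Smad3, which carries signals of transforming growth factor beta, averaged 30.97 ± 3.67 CPM in KO controls and 16.7 ± 1.61 in WT controls (adjusted p = 0.0245). Adora2a, an adenosine receptor that raises cyclic AMP, averaged 84.9 ± 6.32 CPM in KO controls and 50.6 ± 9.89 in WT controls (adjusted p = 0.0499). Zyx, the focal adhesion protein zyxin, averaged 71.1 ± 2.84 CPM in KO controls and 45.8 ± 4.08 in WT controls (adjusted p = 0.0283). All 3 passed in none of the fits that left out a library. Nod1, a sensor of bacterial peptidoglycan, averaged 111 ± 13.1 CPM in KO controls and 70.5 ± 11.1 in WT controls (adjusted p = 0.0452).

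Several chaperones of the cytosol rose as well. Of 18 heat shock genes measured, 4 rose (0.403% over all genes) and none fell. KO values lay above all WT values in 14 (14.3% over all genes), and the median log2 fold change was 0.67. Hspa8, the constitutive Hsc70, was at 1332, 1371 and 1302 CPM in KO controls and 734, 728 and 885 in WT controls (log2 fold change 0.77 ± 0.11, adjusted p = 0.00882). Hsp90ab1, the constitutive Hsp90 chain, was at 5937, 5116 and 5429 CPM in KO controls and 3573, 2878 and 3224 in WT controls (log2 fold change 0.77 ± 0.12, adjusted p = 0.0137). Both genes have near-identical copies in the genome, so their counts are uncertain in that respect. Stip1, which links Hsp70 to Hsp90, was at 235, 194 and 217 CPM in KO controls and 124, 91.1 and 130.3 in WT controls (log2 fold change 0.90 ± 0.17, adjusted p = 0.0449). Ahsa1, an activator of the Hsp90 ATPase, was at 396, 432 and 449.9 CPM in KO controls and 297, 262 and 279 in WT controls (log2 fold change 0.61 ± 0.12, adjusted p = 0.0452). Among those that did not pass, Hsph1 stood at 143, 170.4 and 155 CPM in KO controls and 72.7, 45.02 and 82.9 in WT controls (log2 fold change 1.22 ± 0.27, adjusted p = 0.0762), while the stress-inducible Hspa1a was near the detection limit, at 2.46, 3.95 and 1.79 CPM in KO controls and 0, 1.04 and 0.695 in WT controls. None of the 4 called chaperones passed with the Y-linked covariate, where their log2 fold changes were 0.80 for Hspa8, 0.77 for Hsp90ab1, 0.86 for Stip1 and 0.59 for Ahsa1. Of the 4, 0 to 2 passed when a library was left out.

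The type I interferon list gave 2 rises (against 0.403% of all genes) and no fall among 55 members, with a median log2 fold change of 0.14. Oas1a, a sensor of double-stranded RNA that makes oligoadenylates, was at 19.4, 17.8 and 14.2 CPM in KO controls and 4.12, 6.85 and 5.91 in WT controls (log2 fold change 1.59 ± 0.20, adjusted p = 0.00639), and its counts may be shared with neighbouring near copies such as Oas1g. Usp18, which removes the ubiquitin-like protein Isg15 from its targets, was at 25.4, 23.6 and 19.8 CPM in KO controls and 8.52, 8.703 and 10.8 in WT controls (log2 fold change 1.29 ± 0.18, adjusted p = 0.00882). KO values exceeded all WT values in 19 of the 55 and were below all of them in 2, against 14.3% and 11.2% of all genes. No nucleic acid sensor among 18 measured passed in edgeR, DESeq2 or voom, and 0 had an unadjusted p under 0.05.

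Of 20 genes of MHC class I, 1 rose and 1 fell (0.403% and 0.119% over all genes), and the median log2 fold change was -0.04. H2-Q10, known in mice as a secreted class I protein made mainly in liver, was low, at 10.6, 8.48 and 9.07 CPM in KO controls and 2.13, 3.71 and 3.13 in WT controls (log2 fold change 1.64 ± 0.27, adjusted p = 0.0239). H2-T23 encodes Qa-1, which presents leader peptides to natural killer and CD8 cell receptors, and was at 25.7, 37.8 and 25.1 CPM in KO controls, against 48.5, 66.5 and 82.9 in WT controls (log2 fold change -1.16 ± 0.22, adjusted p = 0.0452). Class I genes are near copies of one another, so both values are uncertain in how tags were assigned.

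Promoter stretches of called genes are shown because Tbx21 and interferon-stimulated genes were among the rises. RefSeq promoters on GRCm38.p6 could be matched for 39 of the 51 genes that rose and 13 of the 15 that fell, and the 250 bases before each start were searched on both strands. The motifs were chosen with results known. The core site bound by T-box factors, GGTGTGA (on the other strand TCACACC), is in capitals in Samd3 (chr10:26229607-26229706, plus strand) and in Gzmm (chr10:79693597-79693696, plus strand). The core of interferon-stimulated response elements, GAAA and GAAA with 2 free bases between them (TTTC on the other strand), is in capitals in Oas1a (chr5:120907526-120907625, minus strand) and in H2-T23 (chr17:36032766-36032865, minus strand).
Samd3: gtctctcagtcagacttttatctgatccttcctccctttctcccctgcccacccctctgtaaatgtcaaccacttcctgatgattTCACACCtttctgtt
Gzmm: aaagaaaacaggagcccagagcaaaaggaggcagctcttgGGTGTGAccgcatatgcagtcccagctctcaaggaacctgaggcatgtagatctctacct
Oas1a: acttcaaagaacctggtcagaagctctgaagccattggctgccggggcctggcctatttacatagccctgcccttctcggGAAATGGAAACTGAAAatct
H2-T23: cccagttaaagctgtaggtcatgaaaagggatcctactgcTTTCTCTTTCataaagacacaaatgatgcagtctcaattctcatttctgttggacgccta

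The T-box core site was found in 3 of the 39 matched genes that rose (Gzmm, Samd3 and Crybg1) and in 0 of the 13 that fell, against 3.84% of 27025 genes with a promoter. In Samd3 the match begins 15 bases before the start, which is also the start of the GENCODE gene. In Gzmm it begins 189 bases before 1 of 2 RefSeq starts, which lies 4806 bases inside the GENCODE gene. The Crybg1 matches precede starts 126578 bases (T-box) and 144007 bases (interferon) inside its GENCODE gene. The interferon motif was found in 2 of the 39 that rose (Oas1a and Crybg1) and in 2 of the 13 that fell (Sipa1l1 and H2-T23), against 3.46% of genes. In Oas1a a pair of overlapping matches lies 20 and 14 bases before the start, a start that is 4 bases upstream of the GENCODE gene. In H2-T23 the match is 124 bases before a start that lies 154 bases inside the GENCODE gene, so the match is within the annotated gene. A heat shock element, GAA then TTC then GAA with 2 free bases after each of the first blocks, was found in 0 of the 52 matched genes, against 0.514% of all genes. Hspa8 and Hsp90ab1 were not among those matched and were not searched. With so few matched genes these are descriptions of sequence, and they say nothing of binding.

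The 15 genes that fell belong to no single list. Rgcc, a regulator of the cell cycle, was at 10.3, 12.1 and 11.6 CPM in KO controls, against 45.3, 36.3 and 39.6 in WT controls (log2 fold change -1.83 ± 0.24, adjusted p = 0.00749). Tmie, known in mice as a part of the hair cell transduction channel, was at 29.05, 32.7 and 34.5 CPM in KO controls and 99.5, 84.6 and 95.8 in WT controls (log2 fold change -1.54 ± 0.23, adjusted p = 0.0122). Ampd1, an AMP deaminase, was at 3.07, 3.599 and 4.65 CPM in KO controls and 16.6, 13.7 and 11.1 in WT controls (log2 fold change -1.86 ± 0.35, adjusted p = 0.0452), the largest fall in fold. In Rgcc and Tmie the replicates of both genotypes lay close together. Ampd1 was low in every library and passed in none of the 6 fits that left out a library.

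Trib2, a pseudokinase of the Tribbles family, was at 91.3, 97.5 and 116 CPM in KO controls and 217, 170.1 and 191 in WT controls (log2 fold change -0.92 ± 0.14, adjusted p = 0.0157). Sipa1l1, a GTPase activator for Rap, was at 24.9, 26.7 and 28.04 CPM in KO controls and 44.4, 44.8 and 50.6 in WT controls (log2 fold change -0.81 ± 0.11, adjusted p = 0.00749). Cirbp, a cold-inducible RNA-binding protein, was at 39.5, 33.9 and 41.05 CPM in KO controls and 73.5, 71.6 and 60.1 in WT controls (log2 fold change -0.84 ± 0.15, adjusted p = 0.0409). Sipa1l1 passed in 5 of the 6 fits that left out a library, Trib2 in 2 and Cirbp in 0. Izumo1r, which encodes the folate receptor FR4 best known from regulatory T cells, was at 7.99, 7.43 and 8.23 CPM in KO controls and 16.04, 16.01 and 18.6 in WT controls (log2 fold change -1.10 ± 0.16, adjusted p = 0.0103). All 5 genes of the regulatory T list, Izumo1r included, had log2 fold changes below 0. They summed to 41.3, 42.5 and 42.8 CPM in KO controls and 60.2, 64.3 and 70.7 CPM in WT controls. The part of regulatory T cells in the fall of Izumo1r was not tested. Ssbp3, Dph7, Bloc1s3, Matk and Idi1 also fell, with log2 fold changes of -0.59, -1.16, -0.98, -1.13 and -1.75. Of these, Dph7 acts in diphthamide synthesis, Bloc1s3 in the making of lysosome-related organelles, and Idi1 in the isoprenoid pathway.

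Rplp1, a protein of the ribosomal stalk, was at 4256, 3796 and 4446 CPM in KO controls, against 8345, 12319 and 6831 in WT controls (log2 fold change -1.14 ± 0.19, adjusted p = 0.0223). Among 88 cytosolic ribosomal genes, 72 had a log2 fold change above 0, against 54.6% of all genes. Rplp1 was the only one of them to pass, against 0.522% of all genes. Its stalk partner Rplp0 stood at 2396, 2173 and 2379 CPM in KO controls, against 1982, 2142 and 1978 in WT controls, and did not pass (log2 fold change 0.19 ± 0.13, adjusted p = 0.538). Rplp2, the other partner, stood at 11244, 10666 and 11791 CPM in KO controls, against 10646, 9507 and 9679 in WT controls, and did not pass either. Rplp1 has processed copies in the genome, so its count is uncertain in that respect. Kif23, a kinesin of cytokinesis, was at 13.1, 13.7 and 11.3 CPM in KO controls and 31.7, 40.8 and 29.7 in WT controls (log2 fold change -1.42 ± 0.25, adjusted p = 0.0348). Kif23 and Rplp1 are neighbours on the minus strand of chromosome 9, 1363 bases apart, and both fell.

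**Figure D2:**
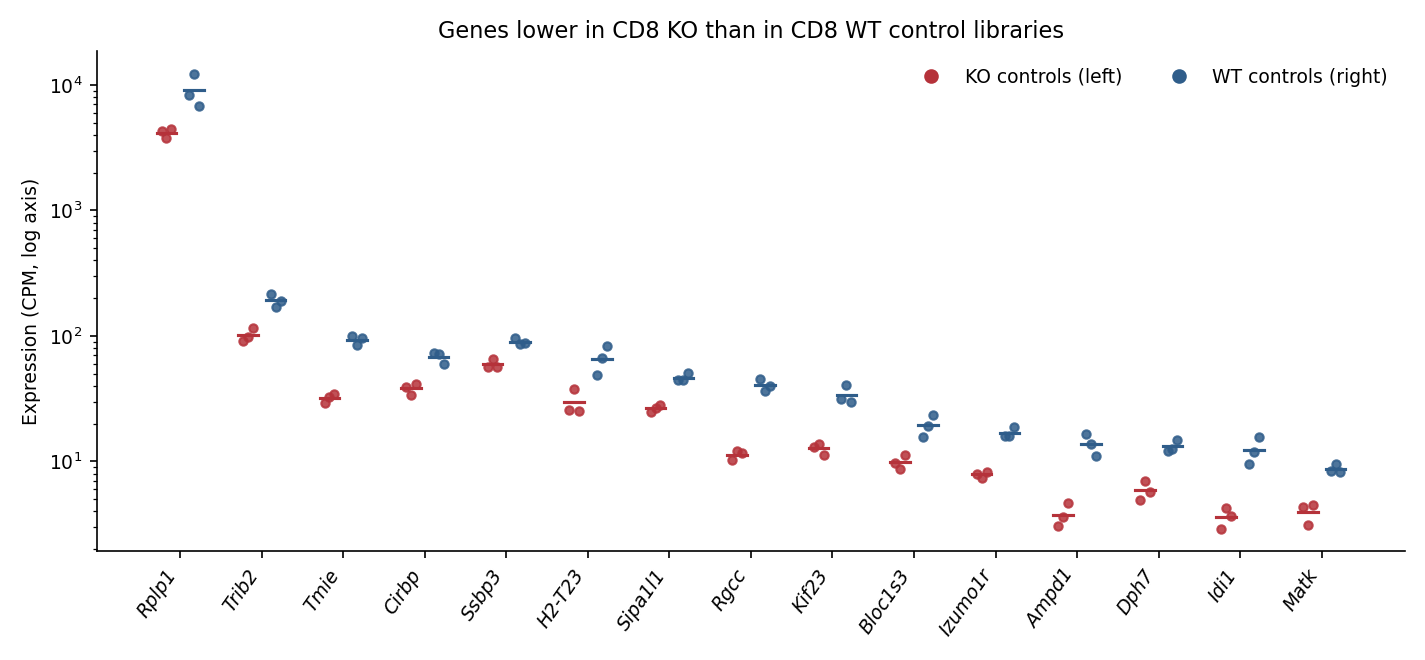
Expression in CPM (log axis) of the 15 genes that fell. Points are the 3 KO (red, left) and 3 WT (blue, right) CD8 control libraries. Short lines are group means. No KO point reaches the lowest WT point of its gene, from Rplp1 at 6831 CPM or more in WT controls to Matk at 8.22 CPM or more.

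Kif23 was at odds with the rest of the mitosis list, where 34 of 37 genes had a log2 fold change above 0, the median was 0.77, and none rose in edgeR. In that list KO values lay above all WT values in 17 genes and below all of them in 1, against 14.3% and 11.2% of all genes. Of the 37, 10 had an unadjusted p under 0.05, DESeq2 called 3 and voom 1. Their summed level was 476, 651 and 393 CPM in KO controls and 389, 339.5 and 329 CPM in WT controls, highest in KO control 2, and without KO control 2 the median was 0.45. Of 44 S phase genes none passed, 7 had an unadjusted p under 0.05 in edgeR, DESeq2 called 1 and voom 0. Of the 44, 38 had a log2 fold change above 0 and the median was 0.34. KO values lay above all WT values in 18 of the 44 and below all of them in 0. Stmn1, which destabilizes microtubules, stood at 144, 180.4 and 96.8 CPM in KO controls and 75.8, 68.00 and 66.5 in WT controls (log2 fold change 1.001 ± 0.42, adjusted p = 0.316).

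Genes of Atm's own pathway did not pass in edgeR. The 6 kinases of the same family, Atm included, all had log2 fold changes below 0, with a median of -0.30. Smg1 was at 123, 150.5 and 174 CPM in KO controls and 197, 152 and 163 in WT controls, and Trrap was at 60.1, 65.2 and 63.01 CPM in KO controls and 84.03, 66.03 and 92.7 in WT controls. Of 32 p53 targets measured, 0 passed in edgeR, 6 had an unadjusted p under 0.05, and DESeq2 and voom each called 1. Their median log2 fold change was 0.22. KO values lay above all WT values in 12 of the 32 and below all of them in 3, against 14.3% and 11.2% of all genes. Cdkn1a, the p53 target that stops the cell cycle, was at 1.38, 2.55 and 2.27 CPM in KO controls and 0.568, 1.39 and 0.927 in WT controls (log2 fold change 1.09 ± 0.50, adjusted p = 0.339), and Pmaip1, a killer protein of the Bcl2 family, was at 19.8, 11.8 and 7.88 CPM in KO controls and 4.97, 6.27 and 6.49 in WT controls. Of 39 checkpoint and repair genes 0 passed in edgeR, DESeq2 or voom and 1 had an unadjusted p under 0.05. Of the 39, 19 had a log2 fold change above 0 and 20 below it. For 4 of the 39 the KO values lay above all WT values, and for 8 below all of them. Over all genes DESeq2 and voom called more, 375 and 365.

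Lists of energy metabolism and cell stress gave no calls in edgeR. Of 24 glycolysis genes none passed, 6 had an unadjusted p under 0.05, DESeq2 called 2 and voom 3, and the median log2 fold change was 0.22. Ldha, a subunit of lactate dehydrogenase, stood at 189, 186 and 187 CPM in KO controls and 156, 156 and 149 in WT controls (log2 fold change 0.29 ± 0.13, adjusted p = 0.341), with replicates close together. Of 78 nuclear genes of oxidative phosphorylation none passed, 14 had an unadjusted p under 0.05, DESeq2 called 4 and voom 1. A log2 fold change above 0 was found in 69. KO values lay above all WT values in 31 of the 78 and below all of them in 2, against 14.3% and 11.2% of all genes. Of the 13 that mitochondrial DNA encodes none passed in edgeR, DESeq2 or voom, none had an unadjusted p under 0.05, and 12 lay below 0. Their sum was 11883, 15662 and 15269 CPM in KO controls and 13828, 28418 and 14268 CPM in WT controls, highest in WT control 2.

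Among 24 antioxidant genes none passed, 5 had an unadjusted p under 0.05, and DESeq2 and voom each called 2. Srxn1, which restores oxidized peroxiredoxins, was at 16.6, 17.8 and 16.3 CPM in KO controls and 5.68, 10.8 and 8.34 in WT controls (log2 fold change 1.02 ± 0.22, adjusted p = 0.0708), and its groups did not overlap. Of 24 genes of endoplasmic reticulum stress none passed, 4 had an unadjusted p under 0.05, DESeq2 called 0 and voom 1. Of 32 immediate early genes, which respond within minutes to handling or activation, none passed, 5 had an unadjusted p under 0.05, DESeq2 called 2 and voom 1. Fos varied more within WT controls than between the genotypes, at 17.7, 26.6 and 26.01 CPM in KO controls and 19.02, 4.18 and 38.5 in WT controls.

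**Figure D3:**
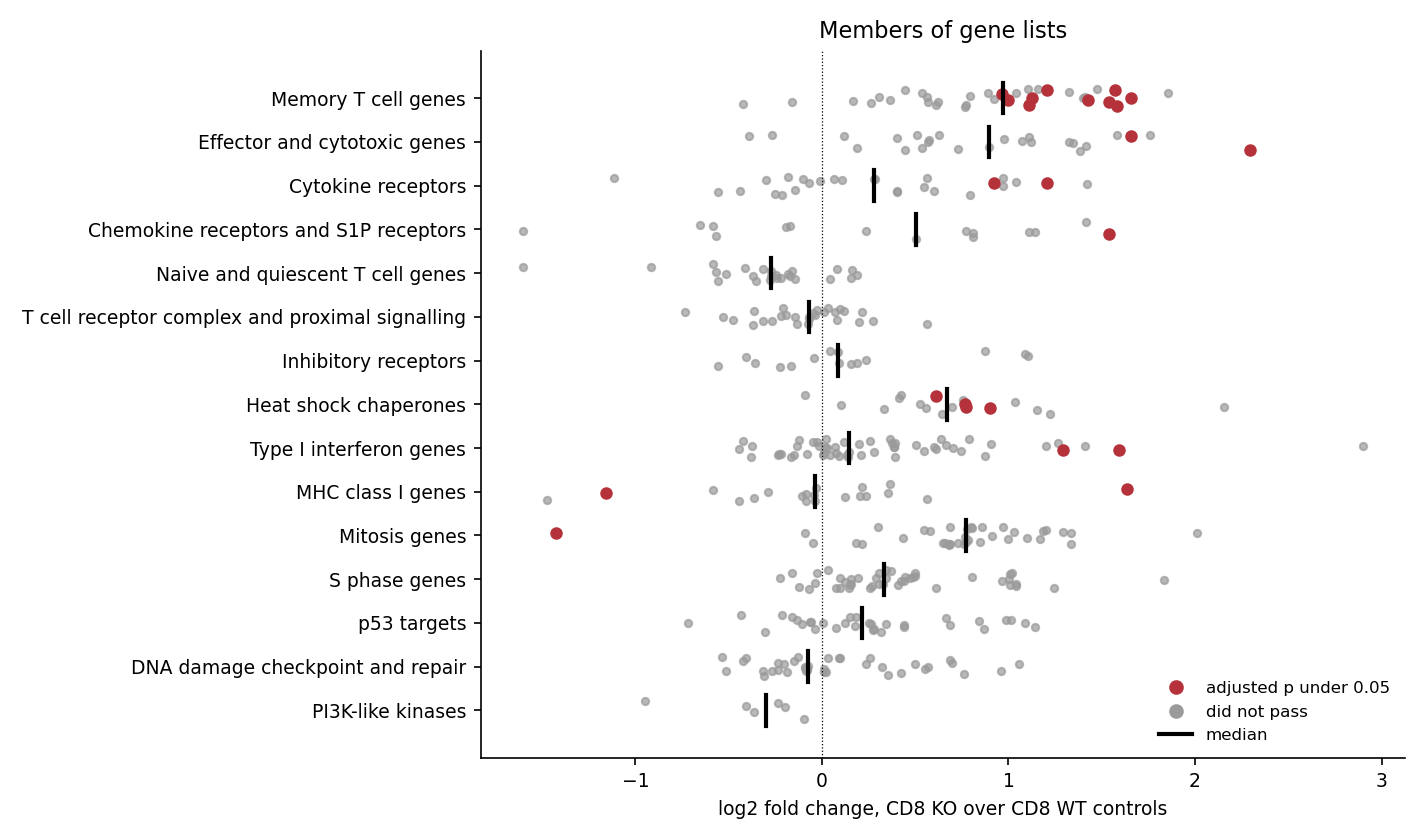
Log2 fold change of KO over WT in CD8 controls (horizontal axis) for every measured member of 15 gene lists. Red points passed an adjusted p of 0.05, grey points did not, and black bars are list medians. The memory, effector, heat shock and mitosis medians, at 0.97, 0.90, 0.67 and 0.77, lie to the right, and the medians of the naive list and of the PI3K-like kinases lie below 0.

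By position, of 77 genes tested within 5 Mb of Atm none passed in edgeR, where 13 had an unadjusted p under 0.05, while DESeq2 called 4 and voom 5. KO values lay above all WT values in 11 and below all of them in 12, near the shares over all genes, 14.3% and 11.2%. Sdhd, a subunit of mitochondrial complex II in that interval, stood at 0.307, 5.81 and 1.79 CPM in KO controls and 6.53, 17.6 and 15.4 in WT controls (log2 fold change -2.27 ± 0.65, adjusted p = 0.172). Chromosome 9 as a whole held 9 of the 66 called genes, 1.29% of its 699 tested genes, and chromosome 10 held 8, 1.36% of its 588, against 0.522% over all chromosomes. The 9 on chromosome 9 lay 8.4 to 57.3 Mb from Atm, with Rplp1 and Kif23 the nearest and Tmie the farthest.

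RNA of other cell types was present and differed between the libraries. Of 8 natural killer genes none passed in edgeR, where 1 had an unadjusted p under 0.05, while DESeq2 and voom each called 1. All 8 had log2 fold changes above 0, and KO values lay above all WT values in 7, against 14.3% of all genes. Their sum was 472, 431 and 413.5 CPM in KO controls and 96.2, 291 and 275 CPM in WT controls. Klrb1c, the receptor NK1.1, was at 93.8, 79.2 and 74.6 CPM in KO controls and 10.5, 69.2 and 57.2 in WT controls. Of 12 monocyte and macrophage genes none passed in edgeR, where 9 had an unadjusted p under 0.05, while DESeq2 and voom each called 3. All 12 lay above 0, and KO values were above all WT values in 9, against 14.3% of all genes. Their sum was 1553, 1599.9 and 1713 CPM in KO controls and 279, 1395 and 809.8 CPM in WT controls. Of 6 platelet genes none passed in edgeR, where 6 had an unadjusted p under 0.05, while DESeq2 called 5 and voom 1. All 6 lay above 0, with a median log2 fold change of 1.31. KO values were above all WT values in 5, against 14.3% of all genes. Platelet genes summed to 246, 143 and 125.5 CPM in KO controls and 45.0, 93.4 and 66.8 CPM in WT controls. B cell genes overlapped, with 215, 175 and 245 CPM in KO controls and 39.7, 93.4 and 416 CPM in WT controls. No marker of these 4 lists was at 0 in all 6 libraries. The natural killer, monocyte and platelet sums moved with the genotype beside the memory and effector genes, and their part in those rises was not tested. With the 91 genes of other cell types and 389 immunoglobulin genes taken out before the fit, 64 genes passed, 63 of them among the 66. Taking these genes out removed only their own rows and left the counts of all other genes as they were. Similar calls were therefore largely fixed in advance, and the fit tells nothing of RNA from other cells in the called genes.

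**Figure D4:**
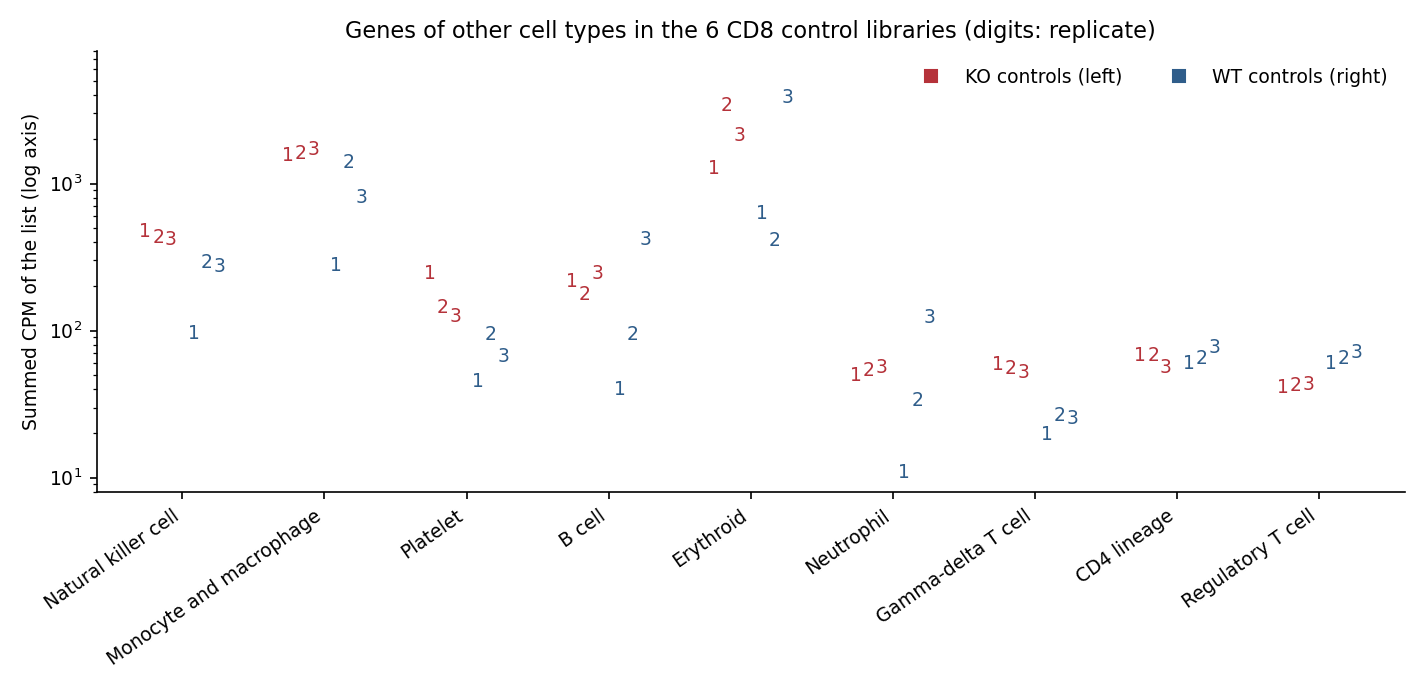
Summed CPM (log axis) of gene lists of other cell types in each CD8 control library, KO in red on the left and WT in blue on the right, with the replicate number as the symbol. WT control 1 is lowest in the natural killer, monocyte, platelet, B cell and neutrophil lists. All 3 KO sums exceed all 3 WT sums in the natural killer, monocyte, platelet and gamma-delta lists. In the regulatory T list, which includes the called gene Izumo1r, all 3 KO sums lie below all 3 WT sums. The gamma-delta sum includes the called gene Cd163l1.

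The genotype was compared again in CD8 cells of other mice, which had received lymphoma cells. Each KO library there pooled 2 mice, while each WT library held 1 mouse. Of the 51 genes that rose in controls, 50 had the same direction there and 8 passed. In that comparison 0.245% of all genes passed, 0.0711% passed upwards, and 53.2% had a log2 fold change above 0. Of the 15 that fell, 15 had the same direction and 8 passed, where 0.174% of all genes passed downwards. Median log2 fold changes with lymphoma were 0.71 for the genes that rose in controls and -1.02 for those that fell, against 0.027 over all genes. Cd163l1 averaged 17.4 ± 5.38 CPM in KO and 2.25 ± 0.205 CPM in WT libraries with lymphoma (log2 fold change 2.95 ± 0.26). Rgcc averaged 7.27 ± 0.954 CPM in KO and 29.9 ± 10.9 CPM in WT libraries with lymphoma (-2.04 ± 0.25). Usp18 and Stip1, which rose in controls, stood at log2 fold changes of -0.16 and 0.07 with lymphoma, where neither passed. Usp18 was the 1 gene among the 51 whose direction differed. The test of the difference itself, lymphoma minus control, called 0 of 12650 genes in edgeR, where 442 (3.49%) had an unadjusted p under 0.05. DESeq2 called 1 and voom called 0.

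CD4 cells came from the same mice, so they share pools with the CD8 libraries. There 257 of 12808 genes passed (2.01%), 1.94% upwards and 0.0703% downwards. Among all genes tested in both cell types, 48.7% had a log2 fold change above 0 in CD4 controls. Of the 51 genes that rose in CD8 controls, 47 had the same direction in CD4 controls and 13 passed. Of the 15 that fell, 11 had the same direction and 2 passed. Tbx21, Il2rb, Cxcr3, Cd44, Lgals1, Chsy1, Oas1a, Hspa8 and Stip1 were among the 13. Gzmm and Dlg5 stood at log2 fold changes of 0.83 ± 0.45 and 0.30 ± 0.73 in CD4 cells and did not pass there, and for neither did the difference between CD8 and CD4 cells pass (adjusted p = 1 and 1). Over all genes, that difference passed for 5 of 13232 (0.0378%), with 614 (4.64%) at an unadjusted p under 0.05. Izumo1r was the only one of the 66 among these 5.

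**Figure D5:**
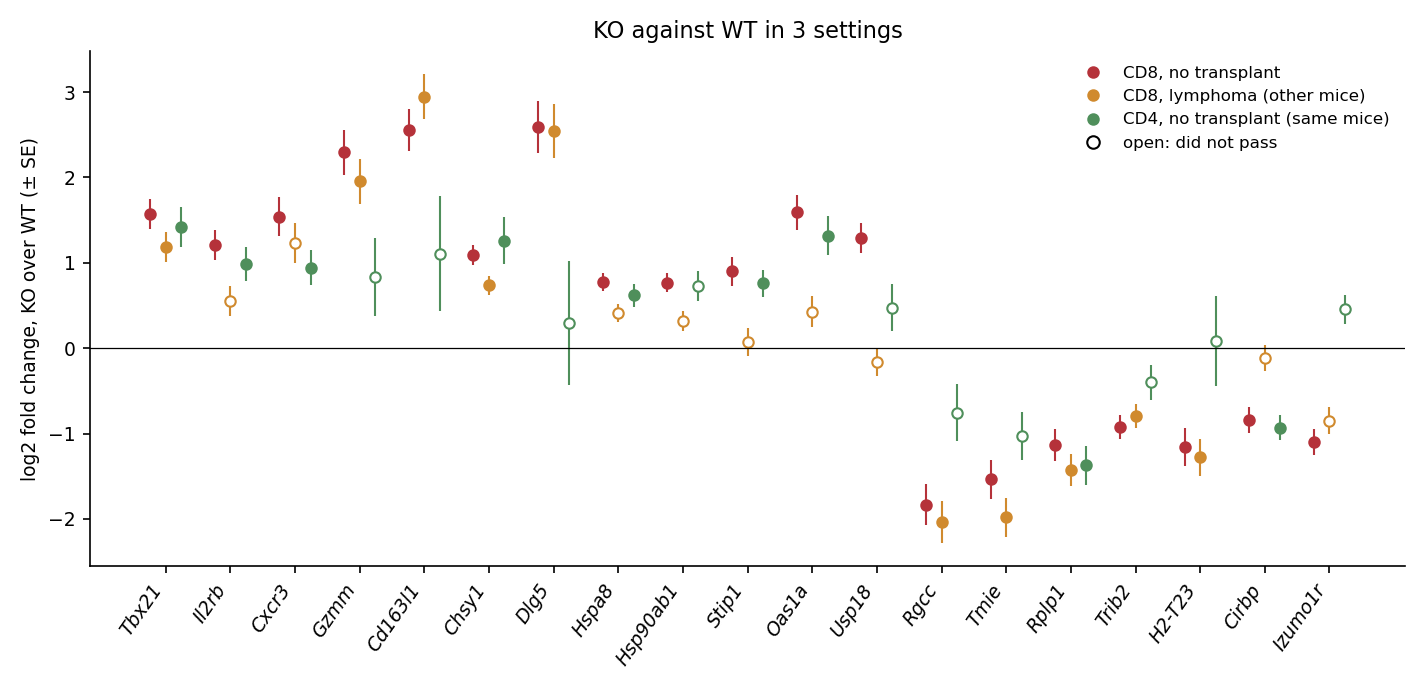
Log2 fold change of KO over WT (vertical axis, bars are standard errors) for 19 called genes in CD8 controls (red), in CD8 cells of other mice with lymphoma (orange) and in CD4 controls of the same mice (green). Filled points passed an adjusted p of 0.05 in that comparison and open points did not. Cd163l1, Gzmm, Dlg5, Rgcc and Tmie are filled in both CD8 settings, while Usp18, Stip1 and Cirbp lie near 0 with lymphoma.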

How the data were processed

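The authors deposited 1 table of estimated counts per gene and library. Salmon 0.11.3 was named in the submitters' processing notes, without its step; the step from transcripts to whole numbers per gene is not described. The deposited counts carry no normalization. GRCh38, a human build, is also named there for these mouse samples, with no role given. Libraries were made with Lexogen QuantSeq 3′ FWD, per the labels' protocols, so a gene's level rests on tags near its 3′ end and levels are not per length. Gene positions come from GENCODE M21 on GRCm38, where 31740 symbols matched 1 gene, and promoters from RefSeq.

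Of 34113 genes, 2 held a letter in place of a number and were dropped. The 12 CD8 libraries entered 1 fit of 4 group means (8 residual degrees of freedom), with filterByExpr (minimum count 10, minimum total 15), trimmed mean of M values and the robust quasi-likelihood test of edgeR 4.0.16 in R 4.3.3, and Benjamini-Hochberg adjustment over 12650 genes at 0.05. Differences between CD8 and CD4 cells used all 24 libraries (13232 genes). In the text, rose and fell mean an adjusted p under 0.05, and ± after a log2 fold change is its standard error. Replicates are separate pools of mice, or single mice in WT libraries with lymphoma (n = 3 per group). The p-values measure the spread between these replicates. The fits were also run on simulated counts of the same design as a check.

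Alternatives were DESeq2 1.42.0, voom with sample weights in limma 3.58.1, other normalizations, filters, sample sets and covariates, a replicate block, and each library left out. Named were Atm and the co-receptor genes, up to 15 rises and 15 falls by fold among called genes without overlap and with at least 5 CPM in the higher group (predicted genes, receptor segments and genes of other cell types left out), and up to 4 called members of each list, or up to 3 by level where none was called, with further members whose groups did not overlap at a log2 fold change over 1 in size. Not every gene the rule allows is printed, and some results of single genes are not reported here. Other genes named were picked after their values were seen. Among them were Eomes, Prf1, Gzma, Lef1, Chsy1, Hsph1, Cd44, Lgals1, Itgb1 and Ahnak. Ctla2b, Trdc, Cdkn1a, Hspa1a, Rplp0, Rplp2 and those said to be so were picked in the same way. The comparison, its gene lists and its tests were chosen with earlier results of these data known. Replicate numbers mark different mice in KO and WT libraries, and same-numbered KO and WT libraries had residual correlations of 0.0533, -0.00799 and 0.0721. CD8 and CD4 libraries with the same number come from the same mice by label, with correlations of 0.0871 to 0.369.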

Additional observations from a re-analysis of the deposited data

Results flagged for a closer look

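For the genes given here the test of the difference between the KO effects in CD8 and in CD4 controls passed an adjusted p of 0.05 (edgeR quasi-likelihood test, 24 libraries). Itgae, the integrin chain CD103 of mucosal and some naive CD8 cells, was at 9.22, 14.4 and 13.01 CPM in KO CD8 controls and 37.8, 28.4 and 30.6 in WT CD8 controls, and in CD4 controls at 5.49, 6.85 and 5.24 CPM in KO and 0.904, 0.756 and 1.51 in WT libraries. The difference of the log2 fold changes, CD8 minus CD4, was -3.90 ± 0.50, adjusted p = 0.00129. Izumo1r had log2 fold changes of -1.10 ± 0.16 in CD8 and 0.46 ± 0.17 in CD4 controls, and the difference was -1.60 ± 0.21, adjusted p = 0.00129. In CD4 controls it averaged 93.6 ± 9.25 CPM in KO and 67.4 ± 9.88 in WT libraries.

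Ehd1, an ATPase of endosome recycling, stood in CD8 controls at 89.4, 86.03 and 87.8 CPM in KO and 88.6, 89.1 and 79.8 in WT libraries (log2 fold change 0.03 ± 0.11), and in CD4 controls at 58.2, 55.7 and 67.3 CPM in KO and 28.02, 32.02 and 28.4 in WT libraries (difference -1.03 ± 0.15, adjusted p = 0.00442). Gpr55, a receptor of lysophospholipids, had -0.74 ± 0.26 in CD8 and 1.42 ± 0.30 in CD4 controls, a difference of -2.20 ± 0.38, adjusted p = 0.0259. For these genes the difference is below 0. Itgae, Izumo1r and Ehd1 passed in 12 of 12 fits that left out 1 library, and Gpr55 in 2. The lowest support for Gpr55 was without CD8 KO control 2, at adjusted p = 0.144. With the mouse pool as a block Gpr55 had adjusted p = 0.0963.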

How the results depend on the processing

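The 66 calls kept their direction in each of 18 alternatives, as did the 64 that were tested without immunoglobulin and other cell type genes, and 474 of 1252 gene values under them no longer passed. The count of called genes was 375 (233 higher in KO, 142 lower) in DESeq2, 365 (209 and 156) in limma voom, 130 (56 lower) with only the 6 CD8 controls and 90 (30 lower) with all 24 libraries. It was 42 (31 higher) with the B cell score, 42 (32 higher) with the B identifier share and 14 (11 higher, 3 lower) with the Y-linked score. Leaving out 1 library gave 8 to 84 calls, 8 to 75 higher in KO and 0 to 19 lower. Replicate numbers did not pair KO with WT libraries, and with the replicate number as a block 49 genes passed, 8 of them lower in KO. Atm had a log2 fold change of -0.95 in DESeq2, -0.87 in voom and -0.96 with only the 6 CD8 controls, and passed in these 3. The difference between lymphoma and control effects called 1 gene in DESeq2 and 0 or 1 when a library was left out, 1 without WT control 2. The difference between CD8 and CD4 effects called 13 genes in DESeq2, 16 in voom, 8 with the mouse pool as a block, which added Kcna2, Rora, Ncf1 and 1700025G04Rik, and 3 to 8 when a library was left out. The causes were not tested. The medians of 13 lists were followed through the alternatives. They kept their sign in each, and 8 of 244 moved by more than the spread between replicates. The medians of the other lists were not followed. These alternatives for medians were chosen after seeing the data. With 3 pools a genotype and 6541484 to 8876146 counts a library, genes that missed the threshold are not shown to be unchanged.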
